A study of Mus musculus with 56 samples.

Results

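The transcriptome of the anterior hypothalamus at lights-off (zeitgeber time 12, ZT12) was compared between 4 mice under daytime-restricted feeding (DRF) and 4 mice under nighttime-restricted feeding (NRF). These 8 mice were all the animals of the series sampled at ZT12, out of 56 mice in all. They were C57BL/6J females aged 9 weeks, kept under a cycle of 12 h of light and 12 h of darkness and held on their regimen for 7 days. DRF mice had food in the light period (ZT0 to ZT12) and NRF mice in the dark period (ZT12 to ZT24), so at ZT12 the DRF mice were at the end of their feeding window and the NRF mice at the end of 12 h without food. Each mouse gave 1 poly(A) RNA library, and nothing in the labels ties a DRF mouse to an NRF mouse. The other 48 mice, 4 per regimen at ZT0, ZT4, ZT8, ZT16, ZT20 and ZT24, were used for the spread between mice and to set the ZT12 difference against other times.

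The anterior hypothalamus holds the suprachiasmatic nucleus, the light-entrained pacemaker, together with nuclei that control body temperature, water balance and stress hormones. Restricting food to the rest phase shifts the daily rhythms of body temperature, corticosterone and fuel use, while the suprachiasmatic pacemaker is known to stay largely locked to light. Genes of the heat shock and cold-inducible families follow body temperature, and genes such as Tsc22d3 and the metallothioneins answer to glucocorticoids, so a transcriptome of this region can carry both the central clock and these body-wide signals.

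Levels are given in CPM, read counts scaled to library size after TMM normalization, and differences as DRF minus NRF in log2(CPM + 1), a scale that understates the change of low transcripts. The 8 libraries held 26618885 to 28175612 reads in the genes whose values resolved into reads. Within a regimen, the correlation between mice across genes was 0.992 to 0.997, and the median SD between mice was 0.106 in DRF and 0.108 in NRF on the log2 scale. Markers of the labelled region were present in all 8 mice: all 9 of its marker genes, Avp, Oxt, Vip, Crh, Six6, Lhx1, Sim1, Otp and Nkx2-1, passed the filter, and their summed level was 688, 514, 531 and 714 CPM in DRF mice 1 to 4 and 502, 649, 373 and 446 CPM in NRF mice 1 to 4, with overlapping regimens.

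Several libraries stood apart in markers of neighbouring tissue. The summed level of 7 markers of the striatum and basal forebrain was 192, 178, 557 and 755 CPM in DRF mice 1 to 4 and 191, 172, 145 and 165 CPM in NRF mice 1 to 4. DRF mice 3 and 4 lay above all 48 mice of the other times, which ranged from 150.3 to 459.7 CPM. The 6 thalamic markers summed to 404, 537, 308 and 268 CPM in DRF mice 1 to 4 and 782, 482, 790.1 and 472 CPM in NRF mice 1 to 4, and NRF mice 1 and 3 exceeded the range of the other times (308 to 767 CPM), while DRF mouse 4 and, by less than 1 CPM, DRF mouse 3 were below it. The 8 oligodendrocyte markers summed to 5258, 6469, 6507 and 5736 CPM in DRF mice 1 to 4 and 8739, 6642, 8444 and 7407 CPM in NRF mice 1 to 4. Each NRF mouse was above each DRF mouse in this sum, and NRF mice 1 and 3 were again above the other 48 mice (4083 to 8340.1 CPM). The 8 markers of the choroid plexus and ependyma summed to 88.3, 83.1, 87.5 and 97.3 CPM in DRF mice 1 to 4 and 66.6, 72.2, 63.7 and 77.3 CPM in NRF mice 1 to 4, each DRF mouse being above each NRF mouse. The other 48 mice ranged from 71.3 to 105.6 CPM, with a median of 88.8 CPM. All DRF mice were within this range, while NRF mice 1 and 3 were below it. In the 5 cortical markers, NRF mouse 1 (116 CPM) was above the other 48 mice (55.0 to 109.3 CPM). In bulk tissue, fewer cells of a type and less RNA per cell cannot be told apart. The libraries also differed in how expression followed the GC content of transcripts: Spearman's rho with GC across genes, relative to the mean of all mice, was -0.0495, -0.423, 0.112 and 0.449 in DRF mice 1 to 4 and 0.0328, 0.362, -0.446 and -0.465 in NRF mice 1 to 4. Across 15993 genes, the ZT12 difference had a rho of 0.241 with GC percent, a description across genes that are not independent replicates.

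**Figure D1:**
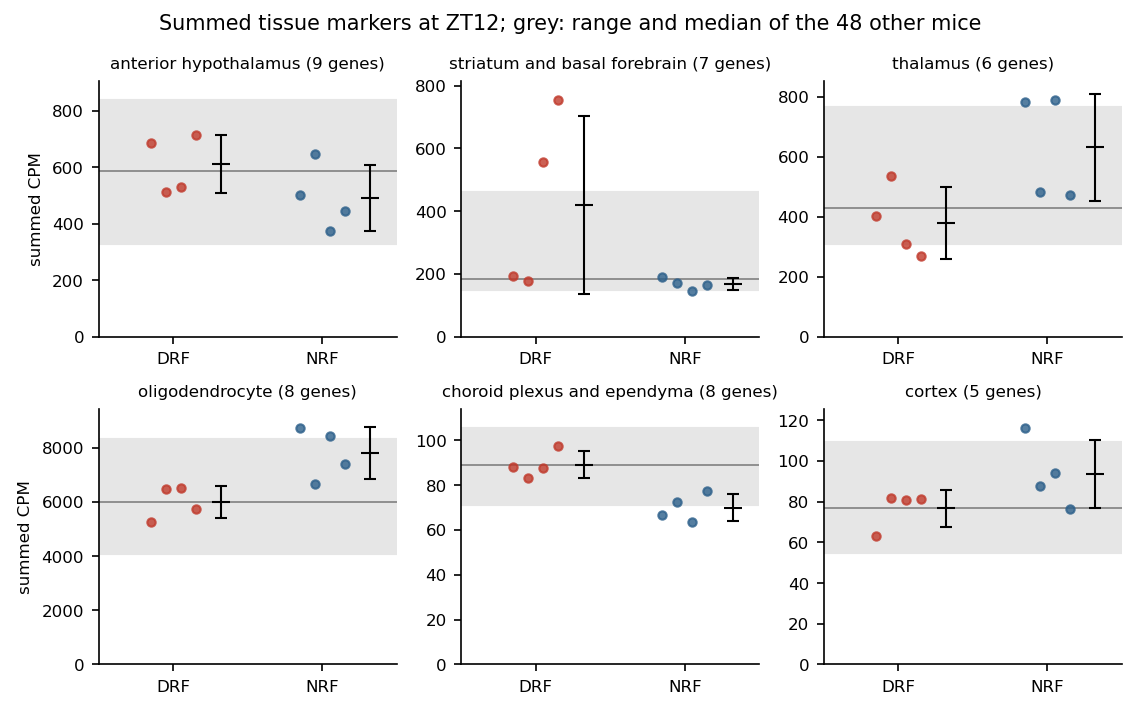
Summed level in CPM (linear axis from 0) of 6 marker lists in each of the 8 mice at ZT12 (points), with the mean and SD of each regimen (bars, n = 4) and the range and median of the 48 mice of other times (grey band and line). DRF mice 3 and 4 lie above that range for striatal markers, and NRF mice 1 and 3 lie above it for thalamic and oligodendrocyte markers. For choroid plexus and ependymal markers, NRF mice 1 and 3 lie below it.

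Of 16107 transcripts tested, 239 differed between the regimens at ZT12 at an adjusted p-value under 0.05 (limma, with the spread pooled over the 14 groups of regimen and time). Of these, 158 rose in DRF (0.981% of those tested) and 81 fell (0.503%). With the trends of each library with length, GC content and expression removed, an alternative scaling, 595 were called and the split was 294 higher and 301 lower. Changes were small: the median absolute difference of the called transcripts was 0.31, against 0.08 for all tested, and 212 of the 239 were under 0.50 and 2 over 1 in size. The 4 DRF values and the 4 NRF values did not overlap for 175 of the called transcripts (73.2%). Over all transcripts tested, the DRF mice lay wholly above the NRF mice in 3.46% and wholly below in 2.86%. The number of calls rested on single libraries. It was 6 without DRF mouse 4, 3 without NRF mouse 3, 35 without NRF mouse 1 and 50 without DRF mouse 3, but 534 without DRF mouse 2 and 407 without NRF mouse 4. Without DRF mice 3 and 4 together it was 3, and with the striatal, thalamic and oligodendrocyte sums as covariates it was 0, with 1700 transcripts at an unadjusted p under 0.05, both chosen after the data were seen. The spread among the 8 mice alone gave 2 calls, Hif3a and Arrdc2, with 1869 transcripts at an unadjusted p under 0.05. The direction was the same for all 239 in each of these fits but the one with covariates, where 236 of 239 kept it. This is largely built in, since the fits reuse the mice by which the 239 were called. The fit of the 8 mice alone has the same differences as the main fit, so its directions could not change.

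Several cytosolic chaperones were higher in DRF, at the end of the feeding window. Of 22 tested genes of the cytosolic heat shock list, which help proteins fold and are induced by warmth and protein damage, 6 rose and 0 fell (0.981% and 0.503% of all transcripts tested), 21 had a positive difference, and the median difference was 0.16 against 0.00 over all transcripts tested. The largest difference was in the inducible Hsp70 genes Hspa1b (NCBI Gene 15511, chr17:34956436-34959238 on the minus strand in GRCm38.p6) and its near-identical neighbour Hspa1a (chr17:34969190-34972156, minus strand), between which the authors' counting could split reads, so that their separate values are uncertain. The 150 bases before their annotated starts, from RefSeq on GRCm38.p6 and shown 5′ to 3′ on the minus strand (chr17:34959239-34959388 and chr17:34972157-34972306), are printed because both carry the same heat shock element; capitals mark the match to GAANNTTC, whose first base lies 104 bases before the start in each.

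Hspa1b: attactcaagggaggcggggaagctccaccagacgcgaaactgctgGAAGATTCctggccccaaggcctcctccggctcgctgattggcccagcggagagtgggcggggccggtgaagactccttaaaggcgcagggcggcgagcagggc
Hspa1a: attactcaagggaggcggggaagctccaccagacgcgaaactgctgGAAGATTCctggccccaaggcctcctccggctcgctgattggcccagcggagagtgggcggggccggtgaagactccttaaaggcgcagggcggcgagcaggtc

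These windows were identical at 149 of 150 bases. In windows of 300 bases around annotated starts (250 before, 50 after), searched on both strands, this element was present in 921 of 12748 tested genes with a window (7.22%), in 10 of 17 genes of the heat shock list, and in 10 of the 132 genes called higher in DRF that had a window (7.58%). In Hsph1 the element lay 21 and 42 bases after its annotated starts. A match describes letters in a window and does not show binding.

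Hspa1b measured 6.58, 6.78, 6.08 and 18.5 CPM in DRF mice 1 to 4 and 3.49, 3.61, 3.05 and 4.96 CPM in NRF mice 1 to 4. Every DRF mouse was above every NRF mouse, and DRF mouse 4 was far above the other DRF mice. The difference was 1.01 ± 0.23 (SE; 95% confidence interval 0.54 to 1.48), a fold of 2.01 on this scale (adjusted p = 0.0222); it was 0.70 without DRF mice 3 and 4, with an adjusted p of 0.454. Hspa1a measured 16.4, 15.6, 15.0 and 27.7 CPM in DRF mice 1 to 4 and 11.6, 11.5, 10.1 and 13.0 CPM in NRF mice 1 to 4, again without overlap, and its difference was 0.61 ± 0.14 (adjusted p = 0.0222).

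Hsph1 (chr5:149614287-149636376, minus strand), the Hsp110 exchange factor that recharges Hsp70, measured 340.1, 375, 360.2 and 416 CPM in DRF mice 1 to 4 and 294, 265, 294 and 309 CPM in NRF mice 1 to 4. The lowest DRF mouse was above the highest NRF mouse, and the difference of 0.36 ± 0.07 passed the test (adjusted p = 0.0109). Stip1, the adaptor that hands clients from Hsp70 to Hsp90, measured 332, 324, 340.1 and 379 CPM in DRF mice 1 to 4 and 284, 287, 261 and 289 CPM in NRF mice 1 to 4. It rose by 0.29 ± 0.06 (adjusted p = 0.0134), without overlap. Dnajb1, an Hsp40 cochaperone, measured 78.4, 81.0, 78.9 and 113 CPM in DRF mice 1 to 4 and 61.3, 67.8, 64.7 and 72.1 CPM in NRF mice 1 to 4. DRF mouse 4 was again the highest, and the difference was 0.38 ± 0.09 (adjusted p = 0.0253). The constitutive Hsp90 gene Hsp90ab1 rose by 0.15 ± 0.04 (adjusted p = 0.0463), with means of 1829 ± 109.8 CPM in DRF and 1648 ± 45.1 CPM in NRF (SD, n = 4). Its constitutive Hsp70 counterpart Hspa8 had a difference of the same size that did not pass the test (0.15 ± 0.04, adjusted p = 0.0559), although its groups did not overlap.

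DRF mouse 4, which had the highest striatal marker sum and the highest GC trend of the 8 libraries, was the highest of the 8 mice in all 6 of the called heat shock genes. Without it, 0 of the 22 genes were called, 21 still had a positive difference, and the median difference was 0.11. Without NRF mouse 3 there were also 0 calls, with 21 positive and a median of 0.15, and without NRF mouse 1 there were 2 calls. The count of positive differences was lowest without NRF mouse 2, at 17 with 5 calls. Without DRF mouse 2 it was 18, with 8 calls. Without both DRF mice 3 and 4, there were 0 calls, 20 positive differences and a median of 0.10. With the 3 marker sums as covariates, there were 0 calls, 21 positive differences and a median of 0.16. The part of dissection and library composition in this difference was not tested.

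**Figure D2:**
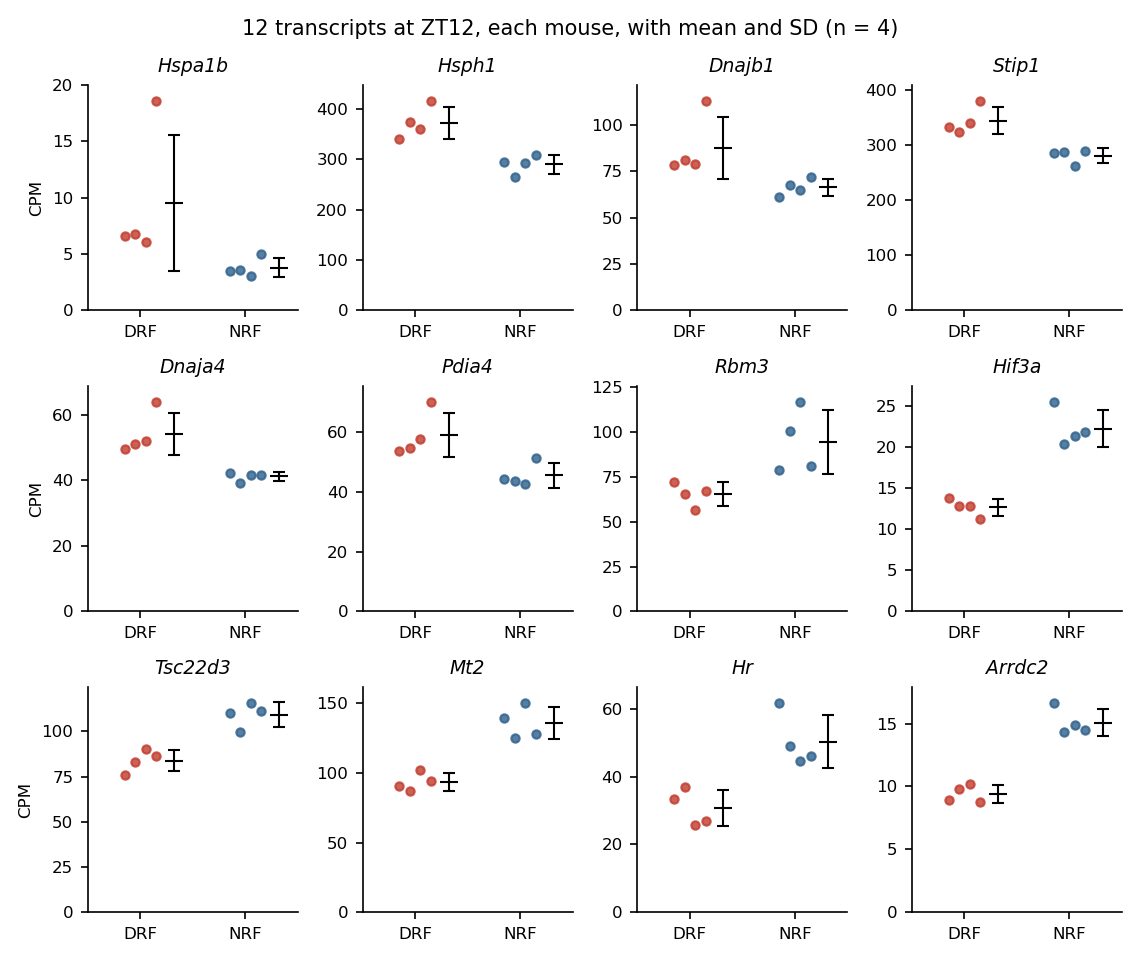
Level in CPM of 12 transcripts in each of the 8 mice at ZT12 (points), with the mean and SD of each regimen (bars, n = 4). Hspa1b ranges from 6.08 to 18.5 CPM in DRF and from 3.05 to 4.96 CPM in NRF, and Hif3a from 11.3 to 13.7 CPM in DRF and from 20.3 to 25.4 CPM in NRF.

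Another cochaperone outside that list, Dnaja4 (chr9:54698873-54716315, plus strand), a J-domain partner of Hsp70, was among the 3 transcripts called whichever single mouse was left out. The 150 bases before the second of its 2 annotated starts (chr9:54699409-54699558, plus strand) are shown because they hold 2 matches to GAANNTTC, in capitals, with first bases 90 and 52 bases before the start.

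Dnaja4: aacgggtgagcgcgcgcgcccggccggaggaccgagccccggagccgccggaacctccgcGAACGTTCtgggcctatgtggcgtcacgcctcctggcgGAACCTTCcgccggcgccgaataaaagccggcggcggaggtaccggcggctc

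Dnaja4 measured 49.7, 51.2, 52.0 and 63.9 CPM in DRF mice 1 to 4 and 42.3, 39.3, 41.7 and 41.6 CPM in NRF mice 1 to 4. The regimens did not overlap, and the difference was 0.38 ± 0.06 (adjusted p = 0.00167); it was 0.35 with the marker covariates (adjusted p = 0.0837).

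In the endoplasmic reticulum, where secreted proteins fold, 2 of 18 tested chaperone genes rose and 0 fell (over all transcripts, 0.981% and 0.503%). A positive difference was seen in 14, and the median was 0.13. Pdia4, a disulfide isomerase, measured 53.9, 54.7, 57.8 and 70.1 CPM in DRF mice 1 to 4 and 44.4, 43.8, 42.5 and 51.5 CPM in NRF mice 1 to 4. Each DRF mouse was above each NRF mouse, with a difference of 0.36 ± 0.07 (adjusted p = 0.0109). Sdf2l1, a partner of the lumenal Hsp70, rose by 0.39 ± 0.11 (adjusted p = 0.0462), with means of 8.97 ± 1.86 CPM in DRF and 6.58 ± 0.981 CPM in NRF. The lumenal Hsp70 itself, Hspa5, had a difference of 0.14 ± 0.08 with overlapping mice (adjusted p = 0.395), and the calcium-binding chaperone Calr one of 0.19 ± 0.05 (adjusted p = 0.0546). Without DRF mouse 4, without NRF mouse 3 and without DRF mice 3 and 4 together, 0 of the 18 were called, and 12 to 15 stayed positive.

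The smallest p-value of the comparison belonged to Srpk1 (NCBI Gene 20815, chr17:28587648-28622709, minus strand), the kinase that phosphorylates SR splicing proteins. It measured 53.4, 52.1, 56.3 and 57.1 CPM in DRF mice 1 to 4 and 44.1, 45.1, 42.9 and 46.8 CPM in NRF mice 1 to 4. The range within each regimen was narrow and the regimens did not overlap. The difference was 0.29 ± 0.04 (adjusted p = 0.000421), and it was called with any single mouse left out. Without DRF mice 3 and 4 the difference was 0.23 (adjusted p = 0.0700).

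Rbm28, a nucleolar protein of ribosome assembly, measured 47.6, 50.9, 52.9 and 55.6 CPM in DRF mice 1 to 4 and 43.1, 38.9, 39.7 and 44.2 CPM in NRF mice 1 to 4. All DRF mice were above all NRF mice, with a difference of 0.31 ± 0.06 (adjusted p = 0.00552). In a list of 27 splicing factors and nuclear RNA proteins, 2 rose and 1 fell, against 0.981% and 0.503% over all transcripts, and 19 differences were negative. Hnrnpm rose by 0.25 ± 0.05 (adjusted p = 0.0134), with means of 100.1 ± 8.54 CPM in DRF and 83.6 ± 3.42 CPM in NRF. The SR protein Srsf4 rose by 0.20 ± 0.05 (adjusted p = 0.0394), with means of 75.1 ± 6.74 CPM in DRF and 65.2 ± 1.23 CPM in NRF. The paraspeckle protein Pspc1 fell (difference -0.20 ± 0.05, adjusted p = 0.0355), with DRF mouse 2 inside the NRF range.

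Glucocorticoid-responsive transcripts mostly had lower values in DRF. Of the 19 tested genes of a list of 20, 2 fell and 0 rose (0.503% and 0.981% of all transcripts tested), and 18 had a negative difference, with a median of -0.16 against 0.00 over all. Hif3a (chr7:17031507-17062427, minus strand), a member of the hypoxia-inducible factor family, measured 13.7, 12.8, 12.8 and 11.3 CPM in DRF mice 1 to 4 and 25.4, 20.3, 21.3 and 21.8 CPM in NRF mice 1 to 4. All DRF mice were below all NRF mice. The difference was -0.76 ± 0.20, or 1.70-fold lower in DRF on this scale (adjusted p = 0.0383), and Hif3a was called from the 8 mice alone as well (adjusted p = 0.0319). Tsc22d3, the leucine zipper protein GILZ, measured 76.0, 83.1, 90.3 and 86.3 CPM in DRF mice 1 to 4 and 110.2, 99.5, 116 and 111 CPM in NRF mice 1 to 4. It too did not overlap, with a difference of -0.38 ± 0.09 (adjusted p = 0.0297).

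Other members of the list missed the threshold. The kinase Sgk1 had a difference of -1.03 ± 0.29 (adjusted p = 0.0559), with 33.1, 36.1, 88.9 and 56.2 CPM in DRF mice 1 to 4 and 103, 84.3, 108 and 114 CPM in NRF mice 1 to 4. DRF mouse 3 lay above NRF mouse 2, so the regimens overlapped. The transcription factor Klf9 had a difference of -0.35 ± 0.10 (adjusted p = 0.0566) without overlap, the lipid droplet gene Plin4 one of -0.79 ± 0.30 (adjusted p = 0.163), and Nfkbia, an inhibitor of NF-kappaB, one of -0.33 ± 0.11 (adjusted p = 0.0970). Fkbp5, a co-chaperone of the glucocorticoid receptor, had a difference of -0.02 ± 0.10 (95% confidence interval -0.22 to 0.18; adjusted p = 0.961). Without DRF mouse 4, NRF mouse 1 or NRF mouse 3, 0 of the 19 were called, and between 15 and 19 were negative. Without DRF mice 3 and 4 there were 0 calls, 17 negative differences and a median of -0.27.

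The metallothioneins Mt1 and Mt2, metal-binding proteins that glucocorticoids and zinc induce, were lower in DRF. Mt2 measured 90.5, 87.2, 102 and 94.2 CPM in DRF mice 1 to 4 and 139, 125, 149.9 and 128 CPM in NRF mice 1 to 4. The highest DRF mouse was below the lowest NRF mouse, with a difference of -0.53 ± 0.12 (adjusted p = 0.0222). Mt1 measured 172, 186, 208 and 196 CPM in DRF mice 1 to 4 and 273, 255, 248 and 246 CPM in NRF mice 1 to 4, also without overlap, and its difference was -0.42 ± 0.11 (adjusted p = 0.0401). The brain form Mt3 was not called, and in the list of 8 genes of metallothioneins and zinc handling 2 fell and 0 rose (0.503% and 0.981% over all). The 150 bases before the RefSeq start of Mt1 (chr8:94178939-94179088, plus strand) are shown for their match to the glucocorticoid response element ACANNNTGT, in capitals, whose first base lies 92 bases before the start.

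Mt1: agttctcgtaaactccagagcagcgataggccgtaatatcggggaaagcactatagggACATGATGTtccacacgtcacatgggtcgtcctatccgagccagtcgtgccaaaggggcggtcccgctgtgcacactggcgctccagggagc

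This element was found in 690 of the 12748 windows (5.41%), in 2 of 16 windows of the glucocorticoid-responsive list and in 6 of 66 windows of genes called lower in DRF (9.09%). Both metallothioneins changed little in size under the alternatives added after the data were seen: Mt2 had a difference of -0.60 without DRF mice 3 and 4 and -0.49 with the marker covariates, with adjusted p-values of 0.165 and 0.226.

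Arrdc2 (NCBI Gene 70807, chr8:70835129-70839720, minus strand), an arrestin-domain protein, had the smallest p among the transcripts that fell. It measured 8.93, 9.80, 10.2 and 8.74 CPM in DRF mice 1 to 4 and 16.6, 14.3, 14.9 and 14.5 CPM in NRF mice 1 to 4. The regimens were well apart, with a difference of -0.63 ± 0.10 (1.54-fold lower in DRF, adjusted p = 0.000743). It was called with any single mouse left out, from the 8 mice alone (adjusted p = 0.0460) and without DRF mice 3 and 4 (difference -0.63, adjusted p = 0.0326), but not with the marker covariates (difference -0.47, adjusted p = 0.126). Hr, the hairless corepressor, which thyroid hormone induces in brain, measured 33.3, 36.8, 25.9 and 26.9 CPM in DRF mice 1 to 4 and 61.6, 48.9, 44.7 and 45.9 CPM in NRF mice 1 to 4. It was lower in every DRF mouse than in every NRF mouse (difference -0.70 ± 0.15, adjusted p = 0.0134). Hr was the 1 gene called among 10 of thyroid hormone handling, where 0.503% of all transcripts fell.

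The cold-inducible RNA-binding proteins Rbm3 and Cirbp, which rise when cells cool, had lower values in DRF. Rbm3 measured 72.5, 65.6, 56.8 and 67.2 CPM in DRF mice 1 to 4 and 78.8, 101, 117 and 81.2 CPM in NRF mice 1 to 4. All DRF mice were below all NRF mice, and the difference of -0.51 ± 0.14 passed the test (adjusted p = 0.0475). Cirbp measured 77.1, 76.3, 70.1 and 62.8 CPM in DRF mice 1 to 4 and 86.7, 101, 95.5 and 82.6 CPM in NRF mice 1 to 4. Its regimens did not overlap either, but its difference of -0.35 ± 0.10 did not pass (adjusted p = 0.0712). Rbm3 was called in 3 of the 8 fits that left out 1 mouse, and its difference was -0.43 without DRF mice 3 and 4 (adjusted p = 0.553).

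Among 20 core clock and clock output genes, Ciart was the 1 called, against 0.503% of all transcripts that fell. Ciart (chr3:95878503-95882251, minus strand), also known as Chrono, represses the CLOCK and BMAL1 activators through E-boxes. The 150 bases before its RefSeq start (chr3:95882229-95882378, minus strand), which lies inside the gene span given here because that span is from GENCODE vM21, hold 3 copies of the E-box CACGTG, in capitals, with first bases 116, 58 and 44 bases before the start.

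Ciart: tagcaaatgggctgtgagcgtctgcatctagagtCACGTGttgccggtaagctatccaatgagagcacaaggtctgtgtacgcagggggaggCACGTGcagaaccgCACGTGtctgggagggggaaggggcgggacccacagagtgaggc

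This E-box was found in 1392 of the 12748 windows (10.9%) and in 5 of 17 windows of the clock list. Ciart measured 15.2, 14.4, 17.0 and 16.1 CPM in DRF mice 1 to 4 and 23.2, 22.7, 22.5 and 18.3 CPM in NRF mice 1 to 4. All DRF mice were below all NRF mice, NRF mouse 4 being the closest, with a difference of -0.44 ± 0.09 (adjusted p = 0.0134). Dbp, a clock output factor, measured 76.5, 69.3, 82.1 and 80.9 CPM in DRF mice 1 to 4 and 101, 104, 99.8 and 82.9 CPM in NRF mice 1 to 4, without overlap, and its difference of -0.32 ± 0.09 missed the threshold (adjusted p = 0.0537).

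The main oscillator genes overlapped between the regimens. The difference was -0.10 ± 0.10 for Per1 (adjusted p = 0.663), 0.08 ± 0.07 for Per2 (adjusted p = 0.652) and 0.00 ± 0.06 for Per3 (adjusted p = 0.993), the period repressors. It was -0.10 ± 0.08 for Nr1d1 (adjusted p = 0.580) and -0.12 ± 0.11 for Nr1d2 (adjusted p = 0.647), the REV-ERB repressors, and 0.07 ± 0.05 for the activator Arntl (adjusted p = 0.578). The 95% confidence intervals were -0.31 to 0.10 for Per1, -0.07 to 0.22 for Per2, -0.25 to 0.06 for Nr1d1 and -0.04 to 0.18 for Arntl.

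Of 20 feeding peptides and receptors, 2 rose and 0 fell, where 0.981% and 0.503% of all transcripts did. Socs3, an inhibitor of leptin and cytokine signalling, measured 4.14, 3.83, 2.80 and 3.62 CPM in DRF mice 1 to 4 and 2.43, 2.40, 2.31 and 2.19 CPM in NRF mice 1 to 4. The levels were low, yet the regimens did not overlap (difference 0.46 ± 0.11, adjusted p = 0.0264). Npy1r, a receptor of neuropeptide Y, measured 24.4, 25.2, 28.2 and 34.0 CPM in DRF mice 1 to 4 and 19.4, 19.4, 22.1 and 22.8 CPM in NRF mice 1 to 4, also without overlap (difference 0.39 ± 0.10, adjusted p = 0.0355); with the marker covariates its difference was 0.11 (adjusted p = 0.692). Of 25 genes of ketone and fatty acid use, 0 rose and 1 fell (0.503% fell over all): the mitochondrial thiolase Acat1, with a difference of -0.15 ± 0.04 (adjusted p = 0.0464) and means of 113 ± 3.04 CPM in DRF and 125 ± 5.19 CPM in NRF.

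Several lists held 0 calls at an adjusted p under 0.05: 14 suprachiasmatic peptides and factors, 16 neuroendocrine peptides, 20 genes of insulin, FOXO and the fasting response, 27 of cholesterol and fatty acid synthesis, 16 of ATF4 and serine synthesis, 20 of amino acid degradation, 20 immediate early genes, 14 Kruppel-like factors, 18 of the core Hippo pathway, 60 of the mitochondrial respiratory chain and 76 ribosomal proteins. As 1.48% of all transcripts tested were called, 0 calls do not set lists of these sizes apart and do not show that their genes were unchanged. Avp measured 220.0, 163, 139 and 257 CPM in DRF mice 1 to 4 and 160.5, 186, 90.4 and 109.7 CPM in NRF mice 1 to 4, with overlapping regimens (difference 0.53 ± 0.32, adjusted p = 0.433). The difference was -0.09 ± 0.20 for Vip, 0.36 ± 0.20 for Oxt and -0.10 ± 0.19 for Crh, none of which passed. Pdk4, a switch from glucose to fat use that rises in fasting, had a difference of -0.05 ± 0.10 (adjusted p = 0.863), and the activity marker Fos one of -0.43 ± 0.37 (adjusted p = 0.616). Among the amino acid degradation genes, Pipox had a difference of -0.13 ± 0.09 (adjusted p = 0.483) and Prodh one of -0.21 ± 0.09 (adjusted p = 0.208). In the respiratory chain, 48 of 60 differences were negative, with a median of -0.04.

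**Figure D3:**
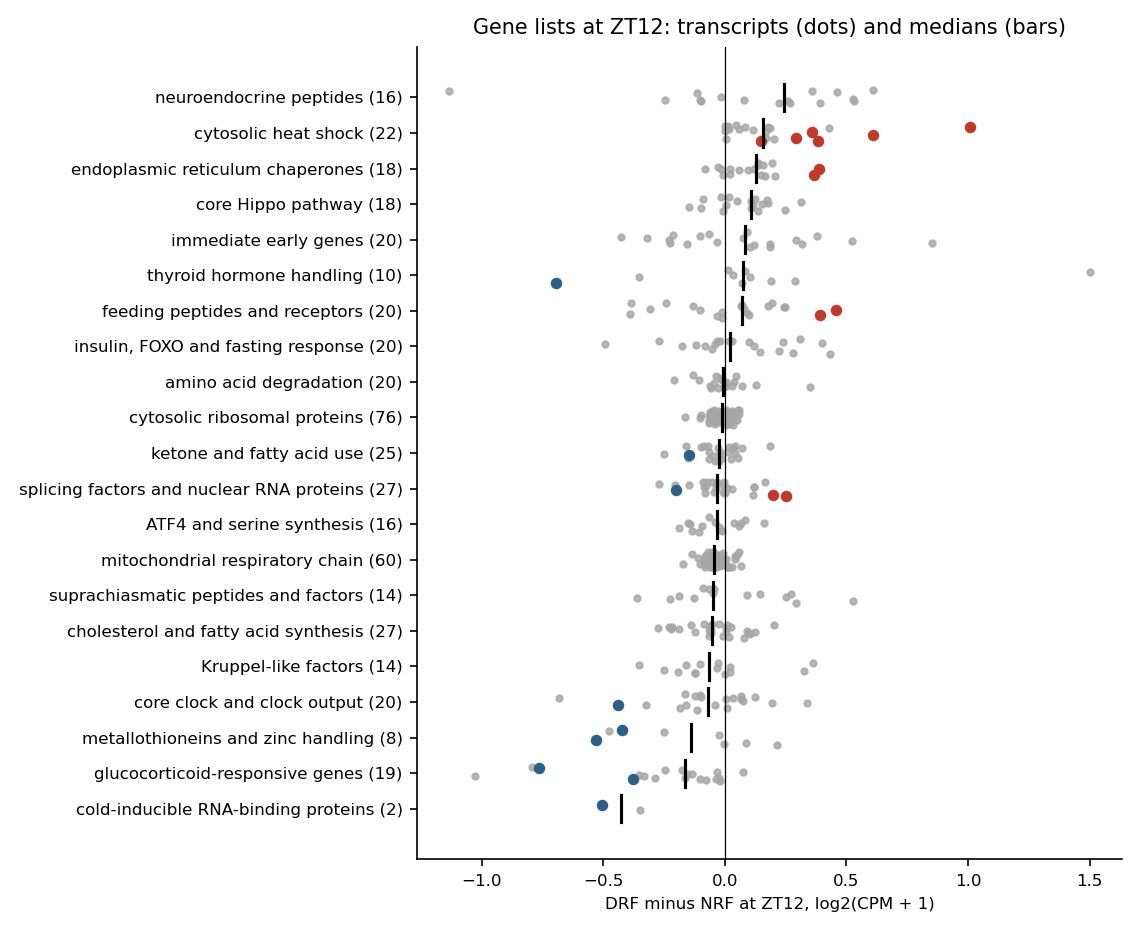
DRF minus NRF difference at ZT12, in log2(CPM + 1), of each tested member of 21 gene lists, with the median of each list (bars) and the called members in red (higher in DRF) or blue (lower). The cytosolic heat shock list has a median of 0.16 with 21 of 22 members above 0, and the glucocorticoid-responsive list a median of -0.16 with 18 of 19 below 0.

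Part of the largest differences ran with markers of neighbouring tissue. The calls among these markers stand against 0.981% of all transcripts that rose and 0.503% that fell. All 7 striatal markers had positive differences (1 called, Rgs9; median 1.12), all 6 thalamic and all 8 oligodendrocyte markers negative ones (0 and 1 called; medians -0.72 and -0.46), and all 8 of the choroid plexus and ependyma positive ones (1 called; median 0.20). The dopamine receptor Drd1 measured 9.83, 8.23, 35.9 and 47.8 CPM in DRF mice 1 to 4 and 9.25, 5.29, 7.63 and 7.32 CPM in NRF mice 1 to 4. DRF mice 3 and 4 were several times above the other 6 mice, which resembled each other, and the difference of 1.32 ± 0.46 did not pass the test (adjusted p = 0.130).

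Rgs9, a regulator of G-protein signalling abundant in striatum, measured 87.1, 86.3, 154 and 182 CPM in DRF mice 1 to 4 and 68.9, 76.8, 62.4 and 79.5 CPM in NRF mice 1 to 4. It passed the test (difference 0.74 ± 0.16, adjusted p = 0.0165), with DRF mice 1 and 2 close to the NRF mice. Without DRF mice 3 and 4 its difference was 0.27 (adjusted p = 0.734). The potassium channel Kcnh4 measured 5.49, 4.06, 8.40 and 12.3 CPM in DRF mice 1 to 4 and 4.26, 4.57, 2.83 and 3.35 CPM in NRF mice 1 to 4. It had the same pattern, with a difference of 0.77 ± 0.17 (adjusted p = 0.0167) and of 0.29 without DRF mice 3 and 4.

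The same 2 mice were highest for Baiap2, a synaptic scaffold (difference 0.67, 0.15 without them), for the kinase Dclk3 (0.58 and 0.09), for the synaptotagmin Syt6 (0.55 and 0.23), for the serotonin receptor Htr4 (0.50 and 0.14) and for the signalling adaptor Dok3 (0.57 and 0.24). All 5 were called with these mice (adjusted p = 0.0355, 0.0459, 0.0355, 0.0353 and 0.0246) and none without them. Another serotonin receptor, Htr1b, measured 6.33, 6.65, 6.91 and 8.18 CPM in DRF mice 1 to 4 and 4.76, 4.80, 2.96 and 5.27 CPM in NRF mice 1 to 4. It depended less on those mice: the regimens did not overlap, the difference was 0.57 ± 0.11 (adjusted p = 0.0109), and it was 0.48 without them (adjusted p = 0.251).

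Among the transcripts that fell most, Cpne9, a calcium-dependent membrane-binding protein, measured 17.0, 26.5, 12.7 and 12.7 CPM in DRF mice 1 to 4 and 50.8, 24.5, 50.7 and 28.0 CPM in NRF mice 1 to 4. NRF mice 1 and 3, the mice highest in thalamic markers, were the highest, and DRF mouse 2 was above NRF mouse 2. The difference was -1.10 ± 0.29 (adjusted p = 0.0421), and -0.06 with the marker covariates. The glutamate receptor Grm2 measured 15.2, 17.1, 14.6 and 14.1 CPM in DRF mice 1 to 4 and 32.5, 20.6, 32.5 and 23.7 CPM in NRF mice 1 to 4. It had no overlap and a difference of -0.78 ± 0.21 (adjusted p = 0.0401), which was -0.09 with the covariates. The difference of the neurite growth gene Nrn1 was -0.66 ± 0.17 (adjusted p = 0.0355) and turned to 0.03 with the covariates.

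Oligodendrocyte transcripts followed the marker sum. The myelin protein Mog measured 49.4, 58.9, 64.0 and 54.4 CPM in DRF mice 1 to 4 and 85.0, 68.0, 94.8 and 71.1 CPM in NRF mice 1 to 4. All DRF mice were below all NRF mice (difference -0.48 ± 0.13, adjusted p = 0.0488), and with the covariates, whose oligodendrocyte sum includes Mog, the difference was -0.12. Klk6, a protease of oligodendrocytes, fell with a difference of -0.71 ± 0.16 (adjusted p = 0.0167; -0.38 with the covariates), and the membrane protein gene Tmem125 with -0.55 ± 0.14 (adjusted p = 0.0355; -0.17).

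Of the ependymal markers, Foxj1, the regulator of motile cilia, measured 27.9, 21.4, 25.9 and 29.2 CPM in DRF mice 1 to 4 and 16.4, 16.8, 16.1 and 23.7 CPM in NRF mice 1 to 4. DRF mouse 2 lay below NRF mouse 4, and the difference was 0.50 ± 0.13 (adjusted p = 0.0401). Mns1, a structural gene of cilia, also rose, by 0.50 ± 0.13 (adjusted p = 0.0355), without overlap. Of the endothelial markers, the tight junction gene Cldn5 was the 1 of 8 called (difference 0.37 ± 0.10, adjusted p = 0.0492), where 0.981% of all transcripts rose. The endothelial list did not share 1 direction: 5 differences were positive and 3 negative, with a median of 0.04 and a lowest value of -0.25. Whether tissue composition accounts for these differences was not tested.

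The remaining transcripts with the largest falls or smallest p were of mixed function. Fam83d, a spindle protein gene, was near 1 CPM in DRF (0.771, 0.819, 1.05 and 0.999 CPM in DRF mice 1 to 4 and 2.66, 1.48, 1.95 and 1.89 CPM in NRF mice 1 to 4), and its difference was -0.64 ± 0.14 (adjusted p = 0.0143). The retinoic acid enzyme Aldh1a1 had a difference of -0.59 ± 0.13 (adjusted p = 0.0158) and the cytoskeletal adaptor Pdlim2 one of -0.53 ± 0.14 (adjusted p = 0.0389). The small GTPase Rhob measured 212, 210.1, 219 and 221 CPM in DRF mice 1 to 4 and 272, 268, 265 and 221 CPM in NRF mice 1 to 4. NRF mouse 4 lay within the DRF range while the other NRF mice were above it (difference -0.24 ± 0.05, adjusted p = 0.0109).

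The DRF minus NRF difference at ZT12 was set against the mean of the differences at the 6 other times. Single other times can share its direction, so a call in this contrast does not show that a difference was confined to ZT12. At ZT8, for example, Mt2 was also lower in DRF (means of 77.4 CPM in DRF and 135 CPM in NRF). Hnrnpm was also higher in DRF at ZT8 (95.6 CPM in DRF and 81.6 CPM in NRF). This contrast was called for 173 of 16107 transcripts (1.07%), 89 higher and 84 lower at ZT12, and for 97 of the 239 called at ZT12, whose differences are part of it. The smallest p belonged to Arrdc2, whose difference at ZT12 was -0.85 away from the mean of the other times (adjusted p = 5.24e-06). Hif3a followed a similar pattern (-1.35, adjusted p = 0.000317), as did Hr (-1.06, adjusted p = 0.000177), Mt2 (-0.80, adjusted p = 0.000493) and Tsc22d3 (-0.54, adjusted p = 0.00187). In the other direction were Hsph1 (0.48, adjusted p = 0.000315), Stip1 (0.39, adjusted p = 0.000581), Srpk1 (0.29, adjusted p = 0.000315), Rbm28 (0.37, adjusted p = 0.000461) and Dnaja4 (0.41, adjusted p = 0.000493). Etnppl, an enzyme of phospholipid breakdown in astrocytes, was called here (-0.62, adjusted p = 0.000177) though not at ZT12 itself (difference -0.25 ± 0.08, adjusted p = 0.121). Of the genes that ran with striatal markers, Rgs9 was not called in this contrast (0.59, adjusted p = 0.0934), nor were Baiap2 (0.58, adjusted p = 0.128) and Dclk3 (0.57, adjusted p = 0.0892), while Kcnh4 was (0.70, adjusted p = 0.0447). The number of calls ranged from 38 without DRF mouse 4 to 280 without DRF mouse 2; it was 63 without NRF mouse 3, 104 without DRF mouse 3, 110 without NRF mouse 1 and 30 without DRF mice 3 and 4 together.

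**Figure D4:**
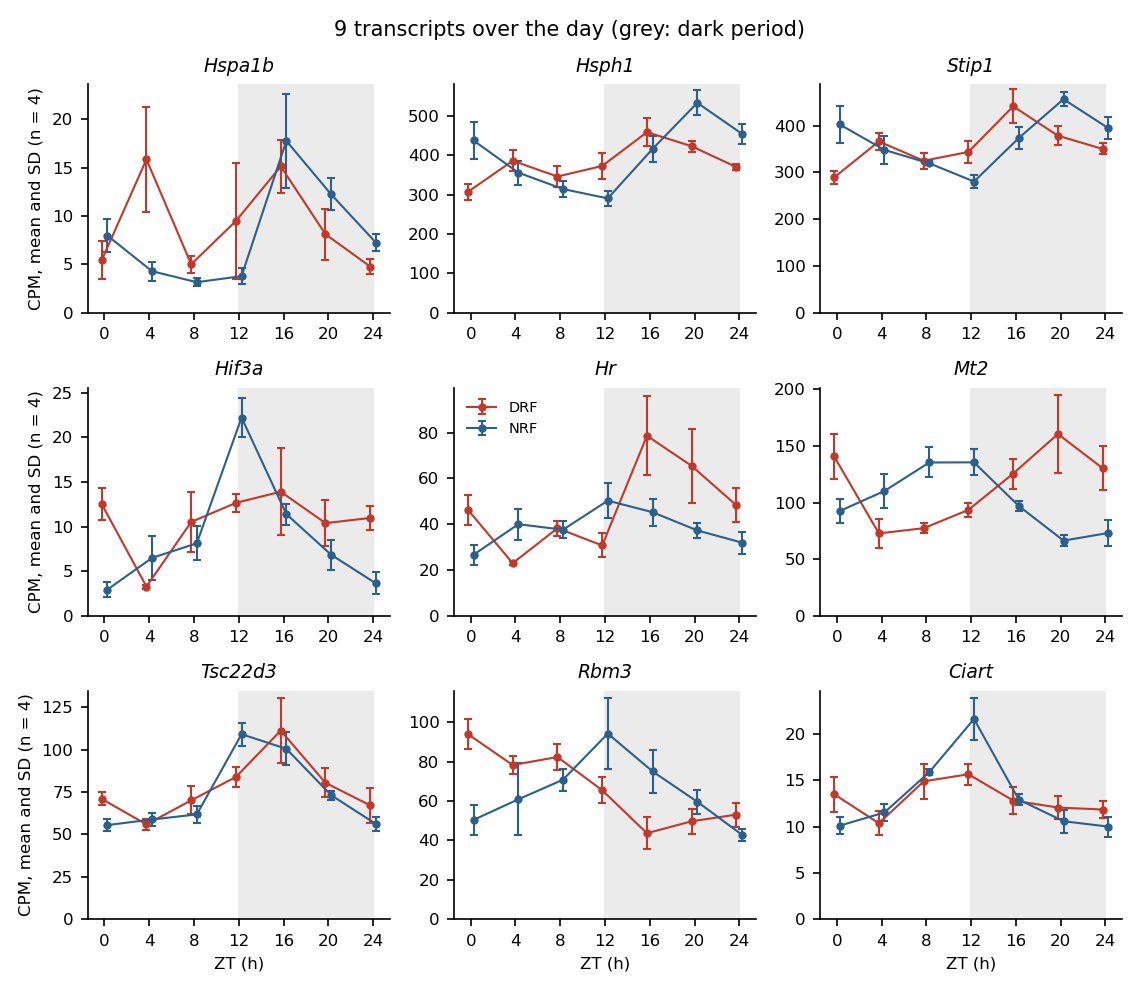
Mean level in CPM with SD (n = 4 mice per point) of 9 transcripts over the 7 times (x axis, ZT in h) in DRF (red) and NRF (blue), the dark period in grey. For Hif3a, DRF is below NRF at ZT12 and above it at ZT0 and ZT24; for Hsph1, DRF is above NRF at ZT12 and below it at ZT0 and ZT24.

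At ZT0 and ZT24 the feeding states are reversed, since DRF mice then end 12 h without food and NRF mice end their feeding window. These 16 mice are other animals than the 8 at ZT12. The times also differ in light phase and time of day. A response to feeding state therefore cannot be told apart here from a changed daily rhythm. Ciart, for example, was higher at ZT12 than at ZT0 in both regimens. Its means at ZT0 and ZT12 were 13.5 and 15.7 CPM in DRF and 10.1 and 21.7 CPM in NRF. Among the 239 transcripts called at ZT12, 160 (66.9%) had a difference of the opposite sign at both ZT0 and ZT24, against 33.6% of all transcripts tested, and 23 (9.62%) had the same sign at all 3 times, against 27.1%. The mean difference at ZT0 and ZT24 was itself called for 1001 transcripts (6.21%), of which 74 were called at ZT12 in the opposite direction and 1 in the same direction. The contrast of ZT12 against ZT0 and ZT24 was called for 1094 transcripts (6.79%), 617 higher and 477 lower at ZT12. It was called for 602 without DRF mouse 4, for 703 without NRF mouse 3 and for 332 without DRF mice 3 and 4.

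Hif3a gave the widest swing among the transcripts described. Its mean was 12.5 ± 1.79 CPM in DRF and 2.93 ± 0.856 CPM in NRF at ZT0 (SD, n = 4), a difference of 1.80, and its difference was 1.39 at ZT24, against -0.76 at ZT12. At the times between, the difference of Hif3a was -0.76 at ZT4, 0.31 at ZT8, 0.22 at ZT16 and 0.53 at ZT20. The contrast of ZT12 with ZT0 and ZT24 was -2.36 (adjusted p = 1.85e-08).

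Hr moved from 0.78 at ZT0 through -0.70 at ZT12 to 0.58 at ZT24 (contrast -1.37, adjusted p = 1.82e-06). Its difference was also negative at ZT4 (-0.76), near 0 at ZT8 (0.02) and positive at ZT16 and ZT20 (0.77 and 0.77). Mt2 was lower in DRF at ZT4, ZT8 and ZT12 (-0.60, -0.80 and -0.53) and higher at ZT16, ZT20 and ZT24 (0.36, 1.24 and 0.83), with a contrast of -1.24 between ZT12 and the mean of ZT0 and ZT24 (adjusted p = 3.27e-07). The cold-inducible Rbm3 had differences of 0.89 at ZT0, -0.51 at ZT12, -0.78 at ZT16 and 0.30 at ZT24 (contrast -1.10, adjusted p = 2.48e-05).

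Heat shock transcripts went the other way. Hsph1 had differences of -0.51 at ZT0, 0.36 at ZT12 and -0.29 at ZT24 (contrast 0.76, adjusted p = 7.75e-08). Its DRF mean was 373 ± 31.9 CPM at ZT12 and 307 ± 20.2 CPM at ZT0, and its NRF mean 290.3 ± 18.4 CPM and 437 ± 47.8 CPM. Stip1 had differences of -0.47, 0.29 and -0.17 at these times (contrast 0.61, adjusted p = 3.27e-07), and Hspa1b of -0.51, 1.01 and -0.52 (contrast 1.52, adjusted p = 0.00039). The largest difference of Hspa1b was at ZT4, at 1.63. Of the 22 heat shock genes, 21 had the opposite sign at ZT12 and at both ZT0 and ZT24 (33.6% of all transcripts tested). In the contrast between these times, 13 were called (6.79% of all transcripts tested). Of the 19 glucocorticoid-responsive genes these counts were 15 and 12, and of the 18 chaperones of the endoplasmic reticulum 12 and 11. Of the 7 striatal markers these counts were 1 and 1, and of the 6 thalamic markers 0 and 0. Given the shares over all transcripts, such low counts do not set lists this short apart. Rgs9 was 0.08 at ZT0 and -0.07 at ZT24, and Cpne9 -0.22 and 0.01.

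**Figure D5:**
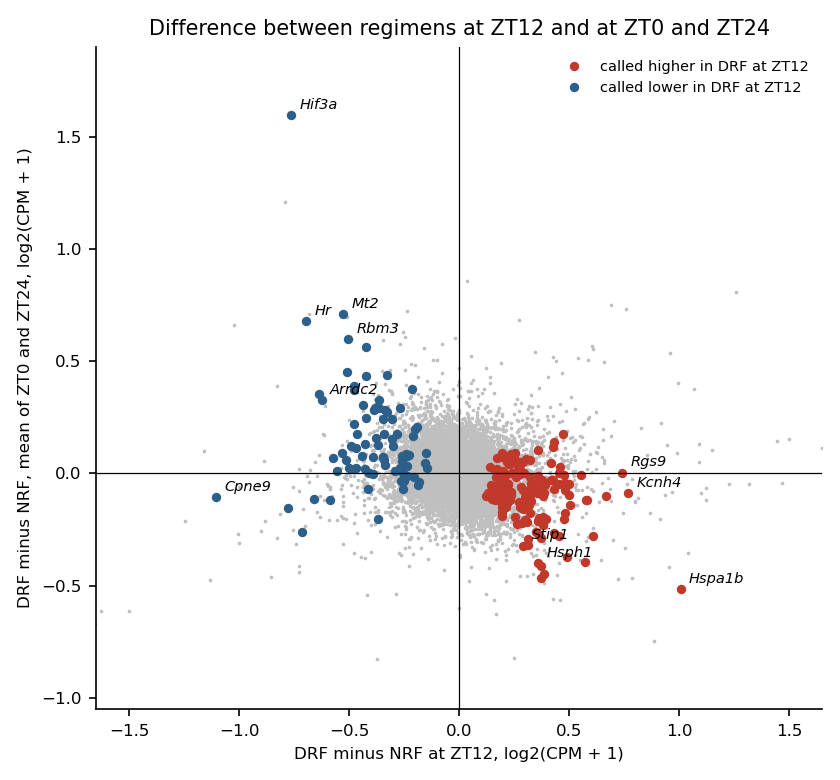
DRF minus NRF difference at ZT12 (x axis) against the mean of the differences at ZT0 and ZT24 (y axis), both in log2(CPM + 1), for the transcripts tested, with those called at ZT12 in red (higher) or blue (lower); 7 genes lie outside the axes. Hif3a lies at -0.76 on the x axis with 1.60 on the y axis, and Rgs9 at 0.74 with 0.00.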

How the data were processed

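The authors mapped reads with HISAT2 and Bowtie2 to GRCm38.p6, quantified them with RSEM, normalized counts by TMM in edgeR and deposited 1 value per gene and mouse, named TPM; read strand was not given in the sources used here, so overlapping antisense transcripts cannot be told apart. The deposited values are a compressed score: log2(CPM + 1) divided by gene length and scaled to a sum of 999333 to 999720 per mouse. Undoing this gave log2(CPM + 1) for 17407 of 17564 genes, of which 15475 resolved into reads (median relative deviation from the predicted steps 2.14e-08). The median of the difference over all genes was 0.00.

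The filter kept transcripts whose deposited score reached 1 in 80% or more of the 56 mice. They were tested with limma 3.58.1 in R 4.3.3 (14 group means, trend and robust settings, Benjamini-Hochberg adjustment over all 16107; called under 0.05), after a test on simulated data; 1300 fell under the filter. No 2 libraries of the same regimen at ZT12 agreed within sampling noise (lowest chi-square per degree of freedom 9.80). Other pairs of libraries were not compared in this way. The authors state that mice were group housed, and no cage is given for any mouse. An effect shared by cage mates therefore cannot be told apart from the regimen. The p-values measure the spread between mice within a group, pooled over the 14 groups. Intervals cover that spread only.

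The gene lists and the genes named were chosen with earlier results of these data known. Named were the 12 largest rises, the 12 largest falls and the 6 smallest p among called genes with a mean log2(CPM + 1) of at least 1, up to 6 members of each list, a set of clock, stress and peptide genes, and up to 6 genes of smallest p in each other contrast; values are given for part of them. Alternatives were 23 refits, 2 of them added after the data were seen. Same-numbered mice did not deviate together (correlations -0.361, -0.446, -0.0928 and -0.251).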

Additional observations from a re-analysis of the deposited data

Results flagged for a closer look

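Within the 4 mice of a regimen at ZT12, 11 of 120 sets of values had a mouse set apart from the other 3 by more than Dixon's 95% limit, where chance alone sets apart about 1 in 20. Values are the gap divided by the range, on the log2 scale for genes. DRF mouse 4 stood above its group in Hspa1b (0.908), Hspa1a (0.855) and Dnajb1 (0.912). NRF mouse 4 stood apart in Ciart (0.873), Foxj1 (0.892) and Rhob (0.875), NRF mouse 3 was low in Stip1 (0.847) and Baiap2 (0.835), and NRF mouse 1 was high in Cldn5 (0.870). NRF mouse 2 was low in the summed astrocyte markers (0.891), and DRF mouse 1 in the summed cortex markers (0.950).

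For 27 of the 46 called transcripts with values in the text, the difference at ZT12 departed from the mean of the 6 other times by a test of that contrast (limma, adjusted p under 0.05), in log2 units. The ZT12 difference by which the 46 were called is itself part of this contrast, so a high count is largely built in. Over all transcripts tested, 1.07% were called in it. Single other times can share the direction seen at ZT12. Against that mean, the ZT12 difference was lower for Arrdc2 (-0.85), Ciart (-0.53), Fam83d (-0.81), Hif3a (-1.35), Hr (-1.06), Mt1 (-0.72), Mt2 (-0.80), Pspc1 (-0.26), Rbm3 (-0.64), Rhob (-0.24) and Tsc22d3 (-0.54). Among chaperones it was higher for Dnaja4 (0.41), Dnajb1 (0.42), Hspa1b (0.95), Hsph1 (0.48), Pdia4 (0.41), Sdf2l1 (0.47) and Stip1 (0.39). It was also higher for Cldn5 (0.48), Dok3 (0.59), Hnrnpm (0.24), Htr1b (0.46), Kcnh4 (0.70), Npy1r (0.46), Rbm28 (0.37), Srpk1 (0.29) and Srsf4 (0.21).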

How the results depend on the processing

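The count of 239 transcripts at ZT12 depended on the fit. It was 560 without the mice at ZT16, 119 on log2 of the deposited score plus 1, 595 with the trends with length, GC and expression removed, 42 with weights by group, 2 from the 8 mice alone and, with 1 mouse left out, between 3 and 534. Without DRF mice 3 and 4 it was 3, and with marker covariates 0 (1700 at an unadjusted p under 0.05). The contrast with the other times gave 456 without ZT16, 451 with trends removed, 38 to 280 with 1 mouse left out, 30 without DRF mice 3 and 4 and 101 with covariates, against 173. The contrast with ZT0 and ZT24 gave 1947 with trends removed, 602 to 1192 with 1 mouse left out and 332 without DRF mice 3 and 4, against 1094. With the replicate number as a block, the counts were 81, 75 and 774, and 0 from the 8 mice alone (1162 at an unadjusted p under 0.05). Across genes, 0 of 8 mice correlated best with the mouse of its own number. Such correlations cannot exclude that same-numbered mice shared a batch. With food at opposite times, a DRF and an NRF mouse could not share a cage during the regimen. Pseudocount, filter, voom, quantile and median settings moved each count by less than 1.5 times. The cause was not tested.

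Of the named genes, Nrn1 was the 1 called difference to change sign (0.0301 with covariates). The other sign changes were in uncalled genes. With covariates the differences were -0.417 for Adora2a, -0.00720 for Avp, -0.0106 for Egr3, -0.112 for Oxt, 0.0671 for Pdk4, -0.0128 for Per2 and 0.0918 for Tcf7l2. The striatal sum includes Adora2a and the thalamic sum includes Tcf7l2, so the loss of their differences is partly built in. Without DRF mice 3 and 4 they were -0.198 for Egr3, -0.00235 for Per2 and 0.0374 for Vip. With trends removed they were -0.0530 for Per3 and 0.0120 for Vip. With 1 mouse left out they ranged from -0.159 to 0.0403 for Crh, from -0.0859 to 0.0278 for Fkbp5, from -0.151 to 0.0110 for Pdk4, from -0.0342 to 0.0340 for Per3 and from -0.149 to 0.00634 for Vip.

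Precision is limited by 4 mice per regimen: the median SE of a difference was 0.08, and the smallest called difference was 0.12.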

Other observations

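Among markers of other cells, 0 of 7 microglial, 0 of 8 astrocyte, 0 of 4 oligodendrocyte precursor, 0 of 8 mural and meningeal, 0 of 5 cortical and 0 of 8 neuronal markers were called at ZT12, with medians between -0.15 and 0.14. As 1.48% of all transcripts tested were called, 0 calls do not set such short lists apart. The 5 tested blood and pituitary markers all had positive differences (median 0.60, 0 called). The sum of all 8 listed genes was 714, 422, 288 and 799 CPM in DRF mice 1 to 4 and 287, 358, 221 and 531 CPM in NRF mice 1 to 4, so the regimens overlapped.

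The summed markers of the arcuate nucleus, which lies outside the anterior hypothalamus, were 115, 71.5, 44.9 and 94.4 CPM in DRF mice 1 to 4 and 58.6, 90.0, 61.5 and 79.1 CPM in NRF mice 1 to 4, within the range of the mice at other times (28.6 to 169.7 CPM). The immediate early gene Egr3, also abundant in striatum, measured 4.82, 3.31, 15.5 and 27.0 CPM in DRF mice 1 to 4 and 5.19, 4.54, 4.45 and 4.84 CPM in NRF mice 1 to 4. It was highest in DRF mice 3 and 4 and its difference was not called (difference 0.85 ± 0.50, adjusted p = 0.405). The striatal marker Adora2a, a receptor for adenosine, measured 2.80, 1.64, 26.7 and 43.6 CPM in DRF mice 1 to 4 and 3.66, 1.91, 2.18 and 1.23 CPM in NRF mice 1 to 4, with a difference of 1.75 ± 0.77 (adjusted p = 0.238). The thalamic marker Tcf7l2 measured 35.9, 68.5, 30.3 and 26.5 CPM in DRF mice 1 to 4 and 112, 78.7, 101 and 37.5 CPM in NRF mice 1 to 4, with overlapping regimens (95% confidence interval of the difference -1.80 to -0.20, adjusted p = 0.182).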
